A study of Rattus norvegicus with 12 samples.

Results

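The Sprouty, Spred and dual-specificity phosphatase genes studied here are brakes that cells switch on in answer to signalling through the kinase ERK, and they were followed in rat calvarial bone 6 h after surgery. The set holds 10 genes of the 34912 gene names on the array: Spry1, Spry2, Spry4, Spred1, Spred2, Dusp1, Dusp4, Dusp5, Dusp6 and Etv5, which were measured by 13 of 45598 probes. Probes were taken by their gene name in the array files, and for each gene 1 probe was chosen by its mean log2 signal, the highest over all 12 arrays. The genes themselves were selected with earlier results of these data known. Their differences from control and between laser and bur thus describe the data and are no independent evidence. The laser group (4 arrays) came from bone ablated by an Er:YAG laser (20 Hz, output of 127 mJ per pulse, 3 strokes), the bur group (4 arrays) from bone drilled with a bur, and both kinds of defect measured 8 by 3 mm. The control group (4 arrays) had its periosteum removed and no bone ablated. All animals were 10 weeks old, their strain and sex are not given in the sources used here, and no label ties the 4 arrays of a group to 4 animals. The p-values here thus reflect the scatter among arrays, which may be technical. The comparisons ask how the transcripts of laser-ablated and of bur-drilled bone differ from those of control bone and from each other.

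Growth factors such as FGFs bind receptor tyrosine kinases at the cell surface and start a relay through Ras, Raf and MEK to ERK. Active ERK raises the transcription of genes whose products damp the same relay: Sprouty and Spred proteins act near the membrane between receptor and Raf, and dual-specificity phosphatases remove the phosphates that keep ERK and related kinases active. In the skull, FGF receptor signalling guides bone-forming cells, and Spry, Dusp6 and Etv5 transcripts are widely read as marks of FGF and ERK activity.

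Each array carried a single dye, and 67.8% to 73.7% of its probes were well above background. No spot of a measured gene was saturated. Values below are log2 signals relative to the 75th percentile of their own array, so 0 is a bright probe and a negative value a dimmer one, and because probes differ in brightness a value is compared only between groups and never between genes. Arrays of a group correlated at r of 0.946 to 0.981 over all genes. The 9 bone-forming marker transcripts used to check the tissue label were all measured in each group. The 4 control arrays lay on 1 slide, while the 8 treated arrays lay on 2 others with 2 laser and 2 bur arrays each, and the spike-in control spots were 3.49 log2 units brighter on treated than on control arrays before scaling. In every comparison with control, treatment therefore cannot be told apart from slide and array handling. Laser and bur can be compared within a slide. In these bulk samples, fewer cells of a type and less RNA per cell cannot be told apart.

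The promoters of Spry4, Etv5 and Spry1, chosen among the genes called after laser, are shown with those of Dusp1 and Dusp5. The last named were called in no comparison of the main fit, which does not show that they were unchanged. Each is given as the 250 bases that end at the annotated start in the RefSeq table of the GRCr8 assembly. The Spry4 sequence is chr18:30702547-30702796 on the minus strand, Etv5 chr11:92113013-92113262, Spry1 chr2:122485097-122485346, Dusp1 chr10:17184603-17184852 and Dusp5 chr1:262543524-262543773, the last 4 on the plus strand. Capitals mark matches on either strand to an ETS string (CCGGAA, read as TTCCGG on the other strand), a CRE string (TGACGTC) or a CArG box, the element bound by serum response factor. For ETS and CRE only these letters were searched, not shorter forms of the sites.
Spry4: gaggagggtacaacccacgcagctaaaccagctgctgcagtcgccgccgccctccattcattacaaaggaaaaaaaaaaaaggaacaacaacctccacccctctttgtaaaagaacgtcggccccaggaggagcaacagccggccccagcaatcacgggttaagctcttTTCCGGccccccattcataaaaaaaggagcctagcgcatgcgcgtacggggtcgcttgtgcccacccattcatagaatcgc
Etv5: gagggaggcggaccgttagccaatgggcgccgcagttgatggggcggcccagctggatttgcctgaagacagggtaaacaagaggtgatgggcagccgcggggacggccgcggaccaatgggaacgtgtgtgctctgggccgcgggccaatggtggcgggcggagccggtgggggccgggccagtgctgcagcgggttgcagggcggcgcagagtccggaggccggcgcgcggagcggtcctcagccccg
Spry1: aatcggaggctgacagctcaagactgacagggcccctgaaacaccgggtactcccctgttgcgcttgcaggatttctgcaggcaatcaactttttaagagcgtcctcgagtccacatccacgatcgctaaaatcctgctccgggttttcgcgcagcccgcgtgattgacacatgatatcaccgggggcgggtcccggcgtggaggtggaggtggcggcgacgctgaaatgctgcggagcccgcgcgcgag
Dusp1: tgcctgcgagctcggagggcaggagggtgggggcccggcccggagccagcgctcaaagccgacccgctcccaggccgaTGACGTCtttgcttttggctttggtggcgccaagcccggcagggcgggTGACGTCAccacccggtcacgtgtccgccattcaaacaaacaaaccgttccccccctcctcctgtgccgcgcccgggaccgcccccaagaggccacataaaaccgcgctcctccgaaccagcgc
Dusp5: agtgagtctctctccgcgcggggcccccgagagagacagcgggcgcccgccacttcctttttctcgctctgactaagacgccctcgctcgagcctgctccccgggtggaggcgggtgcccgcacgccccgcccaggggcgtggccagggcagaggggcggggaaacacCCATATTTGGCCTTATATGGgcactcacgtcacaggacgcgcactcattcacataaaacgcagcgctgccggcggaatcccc
The ETS string was found in the Spry4 promoter, 81 to 76 bases before the start, and in 1 of the 2 listed promoters of Spry2, against 12.6% of all 33469 promoters in the table. Dusp1 held the CRE string at 2 places, at 1 of them on both strands as TGACGTCA, and Spred2 at 1, against 2.8% of promoters. Dusp5 alone among the 9 genes with a listed promoter held CArG boxes, CCATATTTGG and CCTTATATGG side by side, against 1.5% of promoters. The AP-1 letters TGANTCA, present in 6.34% of promoters, were in 0 of the 9. A match is a string of letters only, and the absence of one says nothing of a factor's binding elsewhere. None of these 4 motifs was in the windows of Etv5, Spry1, Spred1 and Dusp6. Whether a motif goes with a change of the transcript was not tested.

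**Figure D1:**
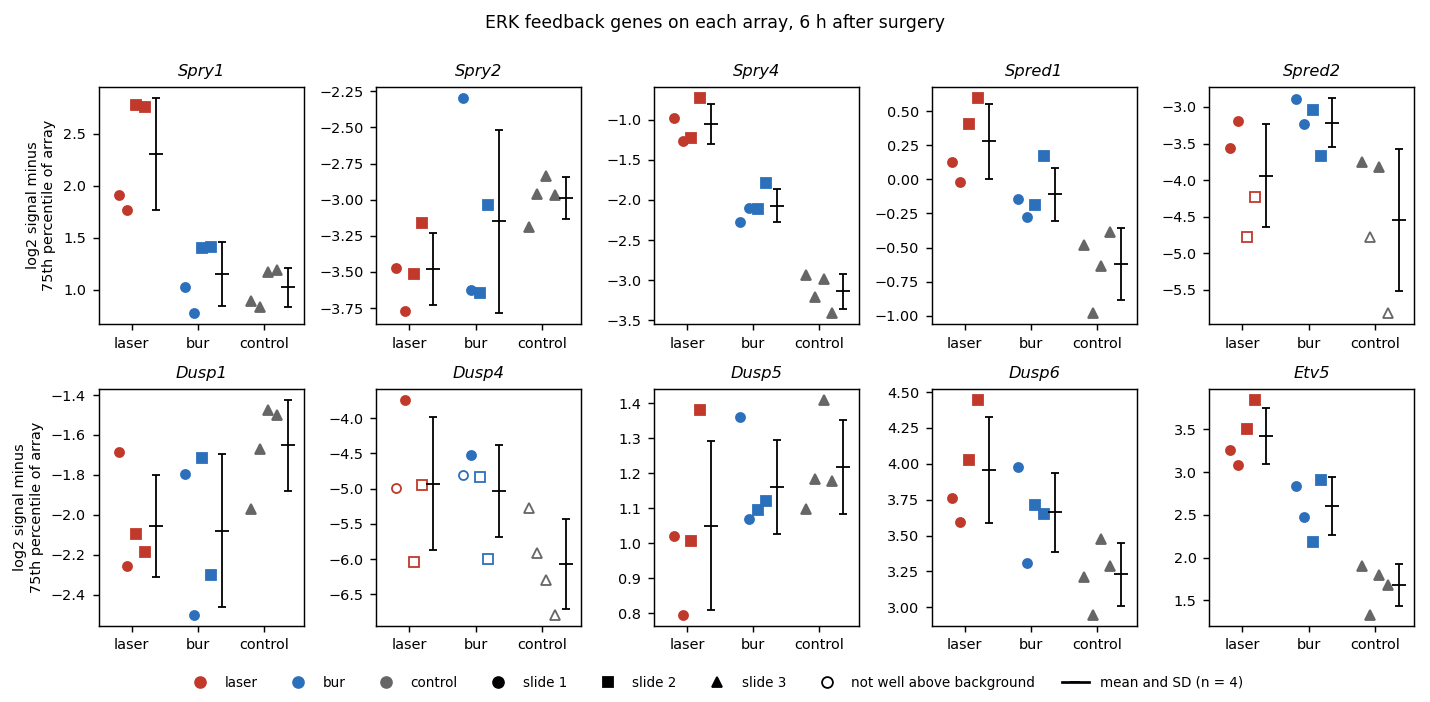
Log2 signal relative to the 75th percentile of the array (y axis, a separate scale in each panel) for the 10 genes on the laser, bur and control arrays (4 each), with the slide shown by the symbol, open symbols for probes not well above background, and bars for the mean and SD. Laser arrays lie above all control arrays for Spry1, Spry4, Spred1, Dusp6 and Etv5, and above all bur arrays for Spry1, Spry4 and Etv5.

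After laser ablation, 5 of the 9 genes that could be tested rose against control and 0 fell. They were Spry4 (4.26-fold), Etv5 (3.36-fold), Spry1 (2.42-fold), Spred1 (1.86-fold) and Dusp6 (1.66-fold). The background is high, since 49.8% of all 22926 genes were called in the same comparison, 32.2% higher and 17.6% lower. The median difference of the 9 genes was 0.73, beside 0.21 for all genes. In the 5 genes called, the 4 laser arrays did not overlap the 4 control arrays, as was so for 31% of all genes in the upward direction.

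After bur drilling, 4 of the 9 rose against control and 0 fell, where 51% of all genes were called, 32.7% higher and 18.3% lower. These were Spry4 (2.10-fold), Etv5 (1.90-fold), Spred1 (1.43-fold) and Spred2 (2.52-fold, against a control group in which 2 of 4 arrays were not well above background). In each of them the 4 bur arrays lay above the 4 control arrays, as for 30.4% of all genes. The median difference was 0.43, beside 0.23 for all genes. Both comparisons use the same 4 control arrays, so the 3 genes called in both are not independent observations. Spry1 and Dusp6 were called after laser and not after bur, and Spred2 after bur and not after laser. Passing in 1 comparison and not in the other is no test of laser against bur.

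Set directly against each other, laser and bur differed in 0 of the 9 genes by limma's adjusted p, in a comparison where 0.00436% of all genes, a single one, were called. That gene was Hspa1a, an inducible heat shock chaperone, named after its value was seen (log2 3.87 higher after laser, SE 0.39, adjusted p = 0.0174). At an unadjusted p under 0.05, 3 of the 9 were higher after laser and 0 lower, against 4.07% and 2.45% of all genes. The same 3, Spry1, Spry4 and Etv5, had 4 laser arrays above all 4 bur arrays, as 2.06% of all genes did. The median difference of the 9 genes was 0.30, beside 0.01 for all genes. As the set was chosen with earlier results known, these counts describe the data and are no independent evidence.

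**Figure D2:**
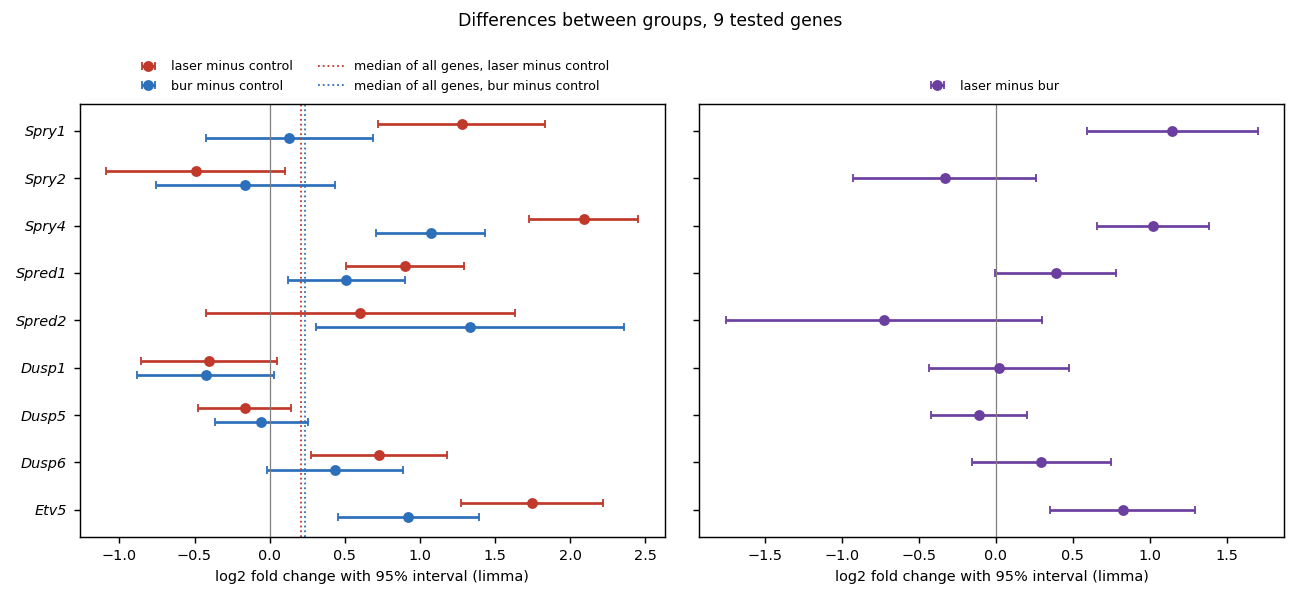
Log2 fold change (x axis) with its 95% interval from limma for the 9 tested genes, on the left for laser minus control and bur minus control, on the right for laser minus bur. The dotted lines mark the medians of all genes, 0.21 and 0.23, and on the right the intervals of Spry1, Spry4 and Etv5 lie above 0.

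The Sprouty genes encode membrane-associated inhibitors of receptor tyrosine kinase signalling, and Spry4 differed from control after laser and after bur. Its probe (chr18:31532750-31532809 on RGSCv3.4, the build of the array design) read -0.98, -1.26, -1.23 and -0.73 on laser arrays 1 to 4, -2.28, -2.09, -2.11 and -1.79 on bur arrays, and -2.94, -3.21, -2.99 and -3.41 on control arrays. The 3 groups formed 3 separate bands, laser on top, bur between and control at the bottom. Against control the difference was 2.09 after laser (SE 0.16, adjusted p = 6.37e-05) and 1.07 after bur (SE 0.16, adjusted p = 0.000656). Genes in the same signal quintile as Spry4 shifted by medians of 0.16 and 0.23 in these comparisons.

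Laser exceeded bur for Spry4 by 1.02, or 2.03-fold, with a 95% interval of 0.66 to 1.38. Its adjusted p over all genes was 0.167, with p = 6.54e-05 before adjustment by limma and 0.0286 by the exact two-sided permutation test, the smallest that 4 against 4 arrays allow. Within slide 1 the difference was 1.06, and within slide 2 it was 0.98. With slide as a fixed block the adjusted p was 0.0844. Background correction by normexp added an offset of 50 to every signal, which shrinks the log2 differences of dim probes in advance. The Spry4 signal was 21.4 to 27.5 on control arrays. With normexp the difference of Spry4 from control was smaller. It was 0.95 after laser, which still passed and was then below the 1.74 of Etv5. After bur it was 0.29, which did not pass (adjusted p = 0.0575). With the authors' deposited values in the same fit the difference of Spry4 was 1.46 after laser.

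Spry1, whose product restrains FGF signalling in many developing organs, was high after laser and near control after bur. The probe used (chr2:124217774-124217833) gave 1.91, 1.76, 2.77 and 2.76 on laser arrays, 1.03, 0.78, 1.40 and 1.41 on bur arrays, and 0.90, 0.84, 1.17 and 1.19 on control arrays. All laser arrays were above all others, while bur and control overlapped. The laser and bur arrays of slide 2 were higher than those of slide 1, and control arrays 3 and 4, which share a slide with control arrays 1 and 2, were likewise above them. Against control the difference was 1.28 after laser (SE 0.25, adjusted p = 0.00227) and 0.13 after bur (SE 0.25, adjusted p = 0.676). The 95% interval of the bur value ran from -0.42 to 0.68.

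The direct difference of laser over bur for Spry1 was 1.15, or 2.21-fold, with an interval of 0.59 to 1.70. Its adjusted p was 0.408 (exact permutation p = 0.0286). It was 0.93 within slide 1 and 1.36 within slide 2. With slide as a fixed block its SE fell to 0.13 and it passed, at an adjusted p of 0.0333, as 1 of 10 genes called (0.0436% of all genes, with 0.0393% higher after laser).

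A second Spry1 probe lies close by (chr2:124217625-124217684). It read 0.76, 0.71, 1.94 and 1.93 after laser, -0.26, -0.47, 0.39 and 0.48 after bur, and 0.10, 0.12, 0.47 and 0.51 in control. The laser arrays again lay above all others, and the bur arrays reached lower than control. In a fit of every kept probe it was 1.04 higher after laser than in control (SE 0.33, adjusted p = 0.0230), with -0.26 for bur (adjusted p = 0.513) and 1.30 for laser against bur (adjusted p = 0.437).

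Spry2, another Sprouty inhibitor, did not pass in any comparison. Its dim probe (chr15:90009823-90009882) gave -3.47, -3.77, -3.51 and -3.16 after laser, -2.30, -3.62, -3.65 and -3.04 after bur, and -3.19, -2.96, -2.84 and -2.96 in control. Bur array 1 stood well above the other bur arrays, and the 3 groups overlapped. The difference from control was -0.49 after laser (SE 0.27, adjusted p = 0.148) and -0.16 after bur (SE 0.27, adjusted p = 0.628). Without bur array 1, which adds to the spread shared by all groups, the laser value passed at an adjusted p of 0.0394.

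**Figure D3:**
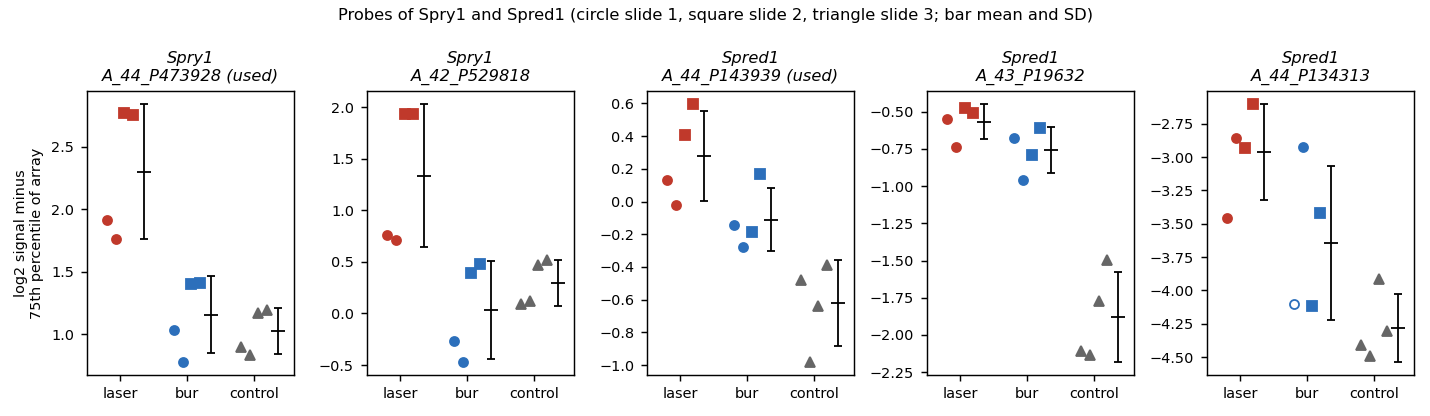
Log2 signal relative to the 75th percentile of the array (y axis, a separate scale in each panel) for the 2 probes of Spry1 and the 3 probes of Spred1 on the laser, bur and control arrays (4 each), with circles, squares and triangles for slides 1, 2 and 3, an open symbol where the probe was not well above background, and bars for the mean and SD. Both Spry1 probes put the 4 laser arrays on top, and all 3 Spred1 probes put the laser arrays above the control arrays.

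Spred proteins hold Ras in check, Spred1 by bringing the Ras inactivator neurofibromin to the membrane. The Spred1 probe used (chr3:103250014-103250073) read 0.13, -0.02, 0.41 and 0.60 after laser, -0.15, -0.28, -0.19 and 0.17 after bur, and -0.48, -0.98, -0.64 and -0.39 in control. Both treated groups lay above control and overlapped each other. The difference from control was 0.90 after laser (SE 0.18, adjusted p = 0.00229) and 0.51 after bur (SE 0.18, adjusted p = 0.0330). The bur call was lost without bur array 1 (adjusted p = 0.0547), bur array 4 (0.0881), control array 2 (0.0950) or control array 3 (0.0663), and with slide as a random block (0.0708). It was also lost with median centring (0.33, adjusted p = 0.247), scaling on probes detected on every array (adjusted p = 0.0560), normexp (0.0618), no filter on dim probes (0.0547), and the bur arrays of slide 1 alone (0.115) or slide 2 alone (0.0542). Laser exceeded bur by 0.39 (adjusted p = 0.772), with an interval of -0.00 to 0.78.

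The other Spred1 probes were higher in treated bone as well, by different amounts. The probe at chr3:103243556-103243615 read -0.55, -0.74, -0.48 and -0.51 after laser, -0.67, -0.96, -0.79 and -0.61 after bur, and -2.11, -2.13, -1.77 and -1.50 in control, so that both treatments stood clear of control. It was 1.31 higher after laser (adjusted p = 0.000198) and 1.12 higher after bur (adjusted p = 0.000409). The third, at chr3:103248100-103248159, was 1.32 higher after laser (adjusted p = 0.00326) and gave 0.64 after bur (adjusted p = 0.0759), where 3 of 4 arrays were well above background.

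Spred2, a close relative with the same action on Ras, had a probe near background (chr14:100797226-100797285), well above it on 2 laser, 4 bur and 2 control arrays. It read -3.56, -3.19, -4.78 and -4.24 after laser, -2.90, -3.24, -3.05 and -3.67 after bur, and -3.76, -4.78, -3.82 and -5.82 in control. The bur arrays all lay above control, by a narrow margin, and the laser arrays spread across both. Bur exceeded control by 1.33 (SE 0.47, adjusted p = 0.0338), and laser gave 0.60 (SE 0.47, adjusted p = 0.295). The bur call was lost in 5 of the 12 fits that left out 1 array, among them the one without control array 4 (0.91, adjusted p = 0.0821). Normexp, whose offset shrinks differences of dim probes, gave 0.02, and the authors' deposited values in the same fit 0.30 (adjusted p = 0.113). Genes in this lowest signal quintile shifted by a median of 0.69 in the bur comparison.

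Dusp6 encodes the cytoplasmic phosphatase that is selective for ERK and is a standard readout of FGF signalling. Its probe (chr7:36897369-36897428) was printed 10 times on each array, with an SD between spots of 0.0479 to 0.0942 log2 units, so spot error was small beside the spread between arrays. It read 3.76, 3.60, 4.03 and 4.45 after laser, 3.98, 3.31, 3.71 and 3.65 after bur, and 3.21, 2.95, 3.47 and 3.29 in control. Laser arrays lay just above control, and bur overlapped both. The difference from control was 0.73 after laser (SE 0.21, adjusted p = 0.0137) and 0.43 after bur (SE 0.21, adjusted p = 0.0990). The laser call held in each of the 12 fits that left out 1 array but did not pass with quantile normalization (0.50, adjusted p = 0.0658), median centring (0.62, adjusted p = 0.0514) or the authors' deposited values in the same fit (0.40, adjusted p = 0.119). With the treated arrays of slide 1 alone it was 0.45 (adjusted p = 0.146), and with those of slide 2 alone 1.01 (adjusted p = 0.00985). Genes in the brightest signal quintile, which holds Dusp6, shifted by a median of 0.32 after laser. Laser against bur gave 0.30 (adjusted p = 0.878), with an interval of -0.16 to 0.75.

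Dusp1, a nuclear phosphatase that acts on stress kinases as well as on ERK and is a classical immediate early gene, did not pass in the 3 comparisons as set up here. Its probe (chr10:16944342-16944661) gave -1.69, -2.26, -2.09 and -2.19 after laser, -1.80, -2.50, -1.71 and -2.30 after bur, and -1.97, -1.67, -1.47 and -1.50 in control. Most treated arrays were lower than most control arrays, with overlap. The differences, -0.40 after laser (SE 0.21, adjusted p = 0.124) and -0.43 after bur (SE 0.21, adjusted p = 0.105), did not pass, and their 95% intervals ended at 0.05 and 0.03. The bur value was called lower with median centring (-0.61, adjusted p = 0.0499) and with array weights (-0.54, adjusted p = 0.0362). Laser against bur gave 0.02, with an interval of -0.43 to 0.48. The promoter of this gene is the one with the CRE string at 2 places, whose part in these values was not tested.

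Dusp5, a nuclear phosphatase selective for ERK, also passed in none of the 3. The probe (chr1:259767436-259767495, 2 spots per array) read 1.02, 0.80, 1.01 and 1.38 after laser, 1.36, 1.07, 1.09 and 1.12 after bur, and 1.10, 1.18, 1.41 and 1.18 in control. The groups overlapped throughout. The difference from control was -0.17 after laser, with a 95% interval of -0.48 to 0.14, and -0.06 after bur, with an interval of -0.37 to 0.25 (adjusted p = 0.339 and 0.748). Rises as large as the 0.73 of Dusp6 lie outside both intervals.

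Dusp4, another nuclear phosphatase of ERK, could not be tested. Its probe (chr16:61109868-61109927) was well above background on 1 laser, 1 bur and 0 control arrays. The values were -4.99, -3.74, -6.04 and -4.95 after laser, -4.80, -4.52, -4.83 and -6.00 after bur, and -5.27, -5.92, -6.29 and -6.79 in control. They ran into the background range, where they have no reliable order, so no fold is given.

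Etv5 is not a brake but a transcription factor of the ETS family that FGF and ERK signalling switch on. Its probe (chr11:80903852-80903911) read 3.26, 3.08, 3.51 and 3.85 after laser, 2.84, 2.48, 2.18 and 2.91 after bur, and 1.90, 1.33, 1.79 and 1.68 in control. As for Spry4, the 3 groups did not overlap and ran laser, bur, control from high to low. The difference from control was 1.75 after laser (SE 0.21, adjusted p = 0.000221) and 0.92 after bur (SE 0.21, adjusted p = 0.00513), and both passed in each of the 12 fits that left out 1 array. Laser exceeded bur by 0.82, or 1.77-fold, with an interval of 0.35 to 1.29 (adjusted p = 0.502, exact permutation p = 0.0286). That difference was 0.52 within slide 1 and 1.13 within slide 2, and its adjusted p with slide as a block was 0.320.

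No slide held both control and treated arrays, so a slide block cannot remove an offset of the control slide. With slide as a random block (consensus correlation 0.175), all 5 genes called after laser passed, Dusp6 with an adjusted p of 0.0397. In that fit 38.3% of all genes were called and 25.7% were higher. After bur, 2 of the 4 passed, Spry4 (adjusted p = 0.00352) and Etv5 (adjusted p = 0.0203). There 39% of all genes were called and 25.4% were higher. Spred2 was at an adjusted p of 0.0807.

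In the authors' deposited table of comparisons, 8 of the 10 genes had the probe used here, and 3 of the 8 were higher after laser, where 29% of all its probes were. These were Spry4 (1.46), Etv5 (1.60) and Spry1 (1.17). Dusp6 gave 0.40 with an adjusted p of 0.0794 in the authors' deposited table. After bur the authors' deposited table called 2, Spry4 (0.60) and Etv5 (0.82), where 28.4% of its probes were higher. Spred1 is in the authors' deposited table through its other 2 probes, both called higher after laser (1.17 and 0.75) and after bur (0.98 and 0.31). Between laser and bur the authors' deposited table called 0 of the 8 and 0.00401% of probes, with Spry1 (1.08) and Spry4 (0.86) both at an adjusted p of 0.0612.

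The rest of the pathway was read from lists of related genes, whose counts stand against 32.2% of all genes higher and 17.6% lower after laser, and 32.7% higher and 18.3% lower after bur. Of 23 receptor tyrosine kinases and ligands 22 were tested, and 10 were higher and 4 lower after laser (median 0.63), with 11 higher and 2 lower after bur (median 0.87). Fgf1, a growth factor that binds all FGF receptors, was 5.05-fold higher after laser (adjusted p = 7.70e-05) and 3.27-fold higher after bur. Fgfr1 and Fgfr2, receptors with roles in skull growth, were 3.46-fold and 2.76-fold higher after laser, and 3.29-fold and 2.63-fold higher after bur. Between laser and bur 0 genes of any of the pathway lists were called by limma.

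Among the 17 tested of 18 other transcripts that ERK activity is known to raise, 9 were higher and 1 lower after laser (median 0.97), against 7 higher and 2 lower after bur (median 0.63). Egr1, an immediate early transcription factor, was 3.79-fold higher after laser (adjusted p = 0.000137), and Ccnd1, the cell cycle regulator cyclin D1, 3.27-fold. Egr3, a relative of Egr1, was well above background on all 4 laser and all 4 bur arrays and on 0 control arrays. In the processing used here this makes it at least 2.74-fold higher after laser (adjusted p = 0.000148) and at least 2.17-fold higher after bur (adjusted p = 0.000289). Such a bound divides the treated mean by a control floor, which on each array is the dimmest detected signal of any probe, or the Egr3 signal where that is brighter. Egr3 passed the filter on dim probes through its treated arrays alone, so a difference was built in. The size of the Egr3 difference rests on the processing. On the log2 scale the bounds are 1.45 after laser and 1.12 after bur. Normexp, whose offset shrinks differences of dim probes, gave 0.29 after laser (adjusted p = 0.125) and 0.13 after bur (adjusted p = 0.495), below these bounds. The authors' deposited values in the same fit gave 0.83 and 0.71, also below them. The mean of its probes gave 1.47 and 1.41, in place of 2.77 and 2.43. After bur, Egr2 was 3.79-fold higher (adjusted p = 0.00263), or 1.28 with normexp in place of 1.92 on the log2 scale, and Epha2, a receptor of the ephrin family, 2.63-fold.

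The 20 components of the Ras, Raf, MEK and ERK cascade itself were called in numbers near those shares of all genes, 6 higher and 5 lower after laser (median 0.01) and 7 higher and 5 lower after bur (median -0.07). Map2k1, which encodes MEK1, was 1.53-fold lower after laser and 1.95-fold lower after bur (adjusted p = 0.000325). The scaffold gene Ksr1 was 2.35-fold lower after laser. Rps6ka3, a kinase that ERK activates, was 1.53-fold higher after laser and 1.64-fold higher after bur.

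Of 12 other Sprouty, Spred and Dusp genes, 3 were higher and 2 lower after laser (median -0.08), and 4 were higher and 2 lower after bur (median 0.15), again near the shares of all genes. Dusp7, a cytoplasmic ERK phosphatase closely related to Dusp6, was 2.94-fold higher after laser (adjusted p = 0.000237) and 2.82-fold higher after bur. With the authors' deposited values in the same fit, the Dusp7 differences were 0.75 and 0.74 on the log2 scale, where the values here are 1.55 and 1.50. Dusp16, which acts on the kinase JNK, was 1.77-fold and 1.74-fold higher. Dusp26 was 6.55-fold lower after laser (adjusted p = 0.0107) and Dusp2, a phosphatase of immune cells, 4.42-fold lower after bur (adjusted p = 0.00670). These 2 folds depend on the processing: the log2 value of Dusp26, -2.71 here, was -2.05 without laser array 2, -1.28 with normexp and -1.72 with the authors' deposited values, and that of Dusp2, -2.14 here, was -1.02 and -1.25 with these last 2 settings. All of them passed.

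Of 11 tested further inhibitors of receptor tyrosine kinase signalling, 4 were higher and 3 lower after laser (median 0.45), against 5 and 3 after bur (median 0.28). Pebp1, which binds Raf, was 1.79-fold and 1.68-fold higher, and Nf1, which encodes neurofibromin, 1.39-fold higher after laser. Rasal2, which inactivates Ras, was 2.25-fold higher after bur. Cbl, which marks receptors for degradation, was 1.62-fold lower after laser and 1.52-fold lower after bur, or -1.37 and -1.23 on the log2 scale with the mean of its probes in place of -0.69 and -0.60. The call of Nf1 was lost with median centring (0.37, adjusted p = 0.0674) and normexp (0.13, adjusted p = 0.273).

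**Figure D4:**
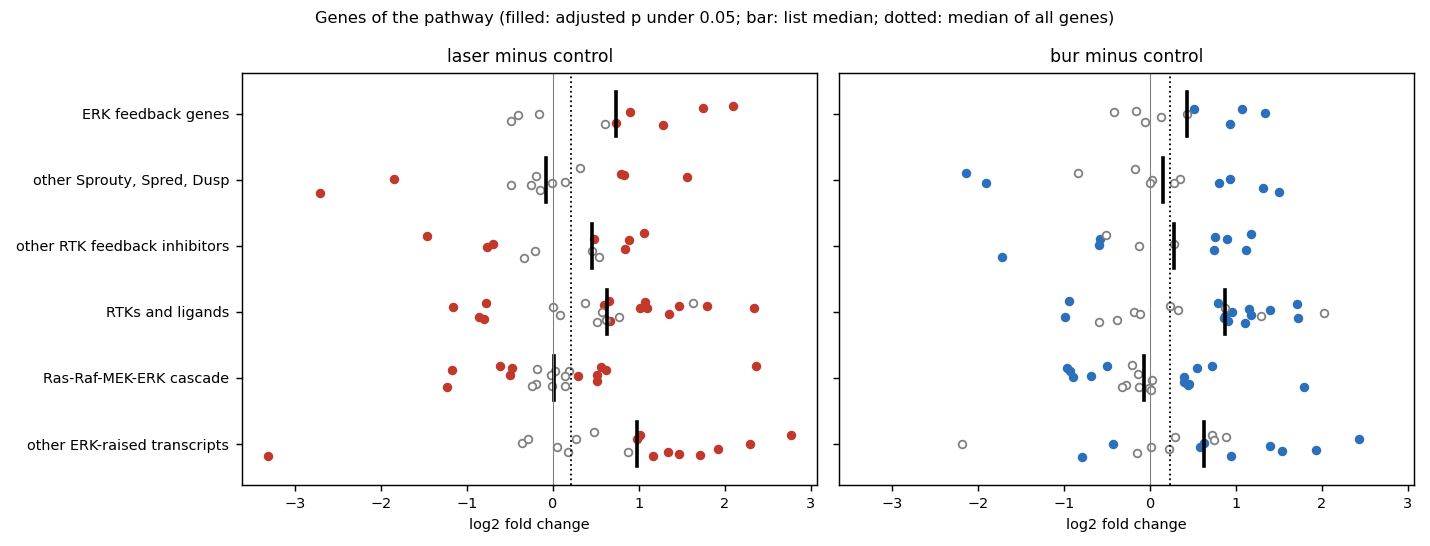
Log2 fold change (x axis) of each tested gene in the set studied here and in the 5 pathway lists (rows), for laser minus control and bur minus control, with filled points for an adjusted p under 0.05, a bar at the median of each list and a dotted line at the median of all genes. In both panels the median of the cascade list lies near 0, at 0.01 after laser and -0.07 after bur, with called genes on both sides.

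Cell type markers moved along with the comparisons with control. Their counts stand beside 32.2% of all genes higher and 17.6% lower after laser, and 32.7% and 18.3% after bur. Of 9 markers of bone-forming cells, 9 were higher after laser (median 1.63) and 8 after bur (median 1.18). The medians of the 9 feedback genes were 0.73 and 0.43. Summed signals of the bone-forming markers were 2559 to 2766 on laser, 2022 to 3176 on bur and 1209 to 1607 on control arrays, in units of each array's 75th percentile. In the same order of groups, 3 of 5 periosteal and fibroblast markers were higher after either treatment (148 to 213, 116 to 188 and 58.3 to 106). So were 3 of 4 keratinocyte markers (1 was lower), whose sums were 1.01 to 1.28, 0.911 to 1.21 and 0.586 to 0.612. Of these, Krt5 was not well above background on any control array. It passed the filter on dim probes through treated arrays alone, so a difference was built in. Erythroid markers were lower in 4 of 5 (14.0 to 309, 73.7 to 402 and 594 to 935) and proliferation markers in 5 of 5 (2.40 to 16.0, 5.05 to 23.8 and 41.4 to 78.4). Neural and glial markers were also lower in 5 of 5, with Elavl3 not well above background on any laser array (0.146 to 0.380, 0.109 to 2.94 and 1.09 to 9.99). Among blood cell markers, 4 of 7 for neutrophils were lower after either treatment (296 to 694, 305 to 776 and 612 to 754), as were 3 of 5 for monocytes (15.6 to 18.6, 12.6 to 19.8 and 14.7 to 18.5). B cell markers were lower in 4 of 5 after laser and 3 after bur (1.21 to 7.44, 2.88 to 12.4 and 8.59 to 16.1). T cell markers were lower in 3 of 4 and 2 (1.35 to 2.61, 1.55 to 3.77 and 2.78 to 4.34), with Cd5 not well above background on any laser array. Endothelial markers were called in 0 and 1 of 5 (14.1 to 20.9, 17.2 to 22.1 and 14.7 to 19.9) and muscle markers in 0 of 5 (2.69 to 8.03, 1.24 to 7.39 and 1.54 to 188). The part of these shifts in the differences of the feedback genes from control was not tested. Between laser and bur, 0 markers of any list were called and the ranges of the summed signals overlapped for all lists. For the bone-forming markers they overlapped only through bur array 1 (3176). Bur arrays 2 to 4 (2084, 2022 and 2044) lay below all laser arrays. The part of this in the laser and bur values of the feedback genes was not tested.

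**Figure D5:**
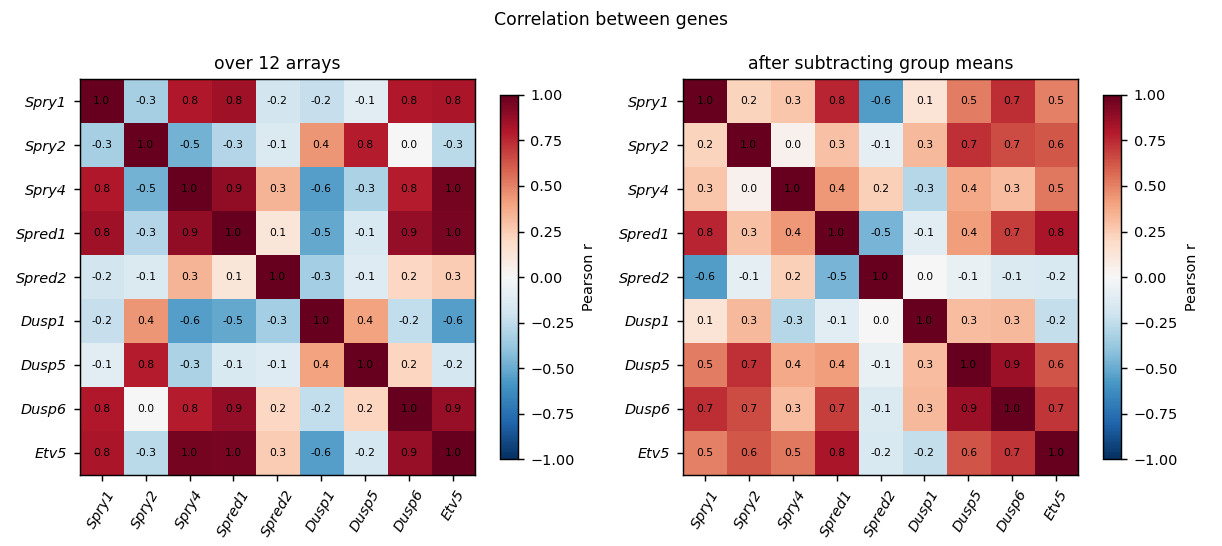
Pearson correlation (colour, -1 to 1, with the value in each cell) between each pair of the 9 tested genes, on the left over the 12 arrays and on the right after subtracting each gene's group means. On the left Spry4, Spred1, Etv5, Spry1 and Dusp6 form a block of high values, and on the right the highest value is that of Dusp5 with Dusp6.

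The genes varied together in part. Over the 12 arrays Etv5 went with Spry4 (r = 0.954) and with Spred1 (r = 0.953), and the 36 pairs ranged from -0.55 to 0.95 with a median of 0.06. Once group means were subtracted, which leaves only the variation among arrays of a group, Spred1 and Etv5 stood at 0.82, Spry4 and Etv5 at 0.53, and the highest pair was Dusp5 with Dusp6 at 0.86. The median was then 0.32, with 27 of 36 pairs above 0. No such count was made for pairs of other genes, so it is not read as particular to this set. These values are descriptions over 12 arrays that share slides, groups and 1 scaling factor per array.

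By the same measure over 12 arrays, the gene most like each was Fign for Etv5 (r = 0.985), Sept9 for Spred1 (0.985), LOC685158 for Spry4 (0.973), Dmac1 for Spry1 (0.966), and FQ213070 for Dusp6 (0.961). For the remaining genes the closest were Arhgef26 for Spred2 (0.930), Fetub for Spry2 (0.908), C1galt1 for Dusp1 (0.904) and Pex13 for Dusp5 (0.892). Spp1, the bone matrix gene osteopontin, was the third closest to Spry1 (0.952), behind Eprs (0.963), and was named after its rank was seen. Neighbours were picked by the highest r over all genes, so high values were built in.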

How the data were processed

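Total RNA of rat calvarial bone was labelled with Cy3 (200 ng per array, per the labels' protocols) and hybridised to 12 one-colour Agilent arrays, 4 per group by title. Per the file headers, Agilent Feature Extraction 11.0.1.1 wrote the spot intensity values of each deposited array file, with background already subtracted by the authors' scanner software in the processed signal. In addition, quantile-normalized log2 values were deposited as 1 table, and the p-value and log2 fold of each probe per comparison as 3 further tables; no source used here gives the model behind these.

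Of 62976 spots per array, control spots and outlier-marked spots were left out, log2 processed signals of a probe were averaged, and each array's 75th percentile was subtracted, which hides a change shared by most genes. Probes well above background on at least 4 of 12 arrays were kept (30121 of 45598), and the brightest per gene name was used (22926 genes, 9 of the 10 feedback genes). That filter ignores groups, but a gene can pass it through 1 group alone. All 12 arrays entered 1 limma fit (version 3.58.1, R 4.3.3), two-sided, adjusted by Benjamini-Hochberg over the 22926 genes, and a gene was called at an adjusted p under 0.05. The fit was tested on simulated data. Exact permutation tests used all 70 splits of 8 arrays. The members, lists and the rule for named genes (per list and comparison with control, up to 3 genes with the smallest adjusted p among those called, and for each member the most correlated gene) were chosen with earlier results of these data known. A gene that the rule names is not reported here. Probe symbols are those of the array design, and 2 of the 10 genes' chosen probes have accessions that were not matched in the RefSeq table. Replicate numbers were not taken as pairs. Alternatives covered scaling, background correction, filters, probe choice, blocks and each array left out.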

Additional observations from a re-analysis of the deposited data

How the results depend on the processing

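After laser 5 members were called. Alternatives called 4 to 6, the sixth being Spry2, called lower when only the 2 groups compared were fitted (adjusted p = 0.0288), except that a minimum log2 fold change of 1 left 1, Spry4. Leaving out 1 array gave 5 to 6. After bur the count of 4 became 2 with scaling on probes detected on every array, 1 with normexp, 2 with slide as a block, 2 with treated arrays of slide 1 only, 2 with those of slide 2 only and 0 with a minimum log2 fold change of 1. It was 3 in 4 further settings, and stayed at 4 with median centring and array weights, 3 higher and Dusp1 lower. It was 2 to 4 with 1 array left out (2 without bur replicate 1 and 2 without control replicate 2). Between laser and bur the count of 0 became 1 with slide as a block and stayed 0 with 1 array left out. The cause of these changes was not tested. The minimum fold change is a stricter threshold, and the fits on 1 slide or without 1 array used fewer arrays. Values that changed sign were those of genes not called: Spred2 after laser with normexp (-0.076); Spry1 after bur with median centring (-0.050), the mean of its probes (-0.067) and slide 1 only (-0.12); Spry2 after bur with slide 1 only (0.029) and without bur replicate 3 (-0.45 to 0.0036 over arrays left out); Dusp5 after bur without control replicate 3 (-0.12 to 0.0078); and, between laser and bur, Spry2 (0.0015) and Dusp5 (0.086) with slide 2 only and Dusp1 with scaling on always-detected probes (-0.0035), slide 2 only (-0.13) and without laser replicate 1, bur replicate 2 or bur replicate 4 (-0.12 to 0.14 over arrays left out). The block of replicate numbers left the counts of members called at 5, 4 and 0. With it 12523 genes were called after laser, and the SE of Spry1 after laser was 0.14 in place of 0.25. Deviations of same-numbered arrays correlated at 0.085 to 0.388 between laser and control. The range was 0.095 to 0.264 between bur and control, and 0.046 to 0.577 between laser and bur. The correlation was over 0.1 in 3, 2 and 3 of 4 pairs. No label used here states a pairing, and the main fit used none. Over all genes, the minimum log2 fold change of 1 left 322 calls after laser and 170 after bur in place of 11421 and 11699. Between laser and bur the 1 gene became 5 with normexp, 10 with slide as a block, 2 with an intensity trend, and 0 with the mean of probes, only the 2 groups compared, slide 1 only, slide 2 only, the minimum fold change, and in 6 of the 12 fits without 1 array. The share of calls that were higher after bur was 64.2% as reported, 51.6% with median centring and with normexp and 54.0% with the authors' deposited values. The median of all genes was 0.03 after laser with normexp in place of 0.21, and after bur 0.05 with median centring and -0.01 with normexp in place of 0.23. Signal near background limits Dusp4 and Spred2.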
